A study of Homo sapiens with 16 samples.

Results

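Cells make and move amino acids and the one-carbon units derived from them with a small set of enzymes and carriers, and 5 genes of this set are described here. They are PHGDH, MTHFD2, SLC1A4, CTH and GLUL. The genes were chosen by symbol, and all 5 were found among the 19044 transcripts that both assays counted over the same coding length. All 5 also passed the filter on low counts (at least 10 counts in enough libraries of both assays), which left 10970 transcripts to test. The cells were HEK293T, a line from human embryonic kidney with the large T antigen of SV40. They were left untreated or were given tunicamycin (Tm, 1 µg/ml), Tm with ISRIB (200 nM) or ISRIB alone (200 nM), each for 1 hr. Tm blocks N-linked glycosylation, which causes stress in the endoplasmic reticulum (ER), and ISRIB is a small molecule that makes translation insensitive to phosphorylation of the initiation factor eIF2α. Ribosome profiling (Ribo-Seq) counted ribosome-protected fragments (RPFs) and mRNA-Seq counted mRNA from the same lysates, with 2 biological replicates (a and b) of each of the 4 treatments and 16 libraries in all.

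PHGDH catalyzes the first step by which serine is made from a glycolytic intermediate. Serine then donates the one-carbon units that MTHFD2 oxidizes on folate inside mitochondria. SLC1A4 is a carrier of alanine, serine, cysteine and other small neutral amino acids in the plasma membrane. CTH cleaves cystathionine to give cysteine at the end of transsulfuration, and GLUL joins ammonia to glutamate to make glutamine. Phosphorylation of eIF2α lowers initiation on most mRNAs while it raises translation of a few, among them ATF4, a transcription factor. PHGDH, MTHFD2, SLC1A4 and CTH are known from other work as genes whose transcription ATF4 can raise during longer stress, and the measurements here were made at 1 hr.

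A small number of features of the libraries bear on every value. Over the joined transcripts the Ribo-Seq libraries held 3001612 to 11469150 counts and the mRNA-Seq libraries 8466193 to 24499266. Depth ran partly with treatment. The Tm pair held the fewest Ribo-Seq counts (4172745 and 3001612 in replicates a and b), and untreated replicate b held the most. In mRNA-Seq the Tm + ISRIB pair was the deepest (17023071 and 24499266). The part of depth in the changes with Tm was not tested. The join kept most Ribo-Seq counts (7966904 of 8330380 in untreated replicate a) and a smaller part of mRNA-Seq counts (11724251 of 37170669 in untreated replicate a). Counts of transcripts that were not joined enter no level or test given here. Replicates differed by more than sampling noise in every treatment, with a chi-square per degree of freedom from 1.63 to 12.1, and the pair that differed most was the mRNA-Seq pair of ISRIB-treated cells. Levels are given as CPM (counts relative to the library's TMM-scaled total within each assay), so that every change is relative to the other transcripts of its assay and total translation was not measured. Fewer ribosomes per mRNA and fewer mRNAs cannot be told apart from RPFs alone, for which reason translational efficiency (RPFs relative to mRNA) was fitted as well. Of the markers looked up for the cell line, NES had 57 RPF and 409 mRNA counts over all libraries. The blood cell marker CD101 had 9 RPF and 556 mRNA counts, and the fibroblast marker COL5A2 had 1375 and 554. These levels do not settle the identity of the line, and their part in any result was not tested.

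The genes lie on chromosomes 1 and 2 of the GRCh38 build in the GENCODE v29 annotation. PHGDH spans chr1:119648411-119744226, CTH spans chr1:70411218-70439851, SLC1A4 spans chr2:64988477-65023865 and MTHFD2 spans chr2:74198562-74217565, all on the plus strand, and GLUL spans chr1:182381704-182392206 on the minus strand. For each of the 5, 20 codons of the annotated coding sequence were not counted. The surroundings of the start codon are shown because initiation is the step on which eIF2α acts. Each run gives the 12 bases before the start codon, the start codon in capitals and the bases after it, 5′ to 3′, from the GENCODE transcripts, with ATF4 last for comparison.
PHGDH: ccaactccagcaATGgctttt
MTHFD2: ccggcgcggtctATGgctgcg
SLC1A4: gcgtgtagcgccATGgagaag
CTH: tcgcggttcagcATGcaggaa
GLUL: acaccttccaccATGaccacc
ATF4: aagcaccgcaacATGaccgaa

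MTHFD2 is the member with a pyrimidine at position -3 (counted back from the start codon). The other 4 members and ATF4 have a purine there, as do 81.0% of the 19510 principal coding transcripts of the annotation. Upstream ATGs, which can divert scanning ribosomes, were absent from the 5′ leaders of MTHFD2 (80 bases), CTH (144 bases) and SLC1A4 (243 bases). PHGDH has 3 to 10 upstream ATGs in its 2 annotated leaders and GLUL has 1 to 9 in its 4, against 3 to 7 in the 3 leaders of ATF4. At least 1 upstream ATG is present in 50.2% of the principal transcripts. These features come from the annotation by symbol and coding length, and nothing was drawn from them about the measured changes.

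In untreated cells the genes fell into an abundant and a scarce group. Per kilobase of coding sequence, GLUL mRNA was above 96.8% of the tested transcripts and PHGDH and MTHFD2 mRNA were each above 95.3%, with RPKM values (CPM per kilobase) of 361.5 ± 14.0, 240.3 ± 11.5 and 239.9 ± 7.85 (SD, n = 2). CTH mRNA was above 36.1% of them with 13.6 ± 0.134 RPKM (SD, n = 2), and SLC1A4 mRNA above 12.04% with 3.35 ± 0.428 RPKM (SD, n = 2). PHGDH and MTHFD2 mRNA did not differ beyond their spread, while the other neighbors in this order did not overlap. In RPFs the order was GLUL (367.4 ± 28.0 RPKM), PHGDH (276.9 ± 5.37), MTHFD2 (154.8 ± 6.95), CTH (19.6 ± 2.39) and SLC1A4 (14.2 ± 0.224; SD, n = 2 for each), and no neighbors overlapped. The order of translational efficiency was different from both. On the log2 scale of RPF RPKM over mRNA RPKM, SLC1A4 had 2.08 ± 0.16 (SD, n = 2), above 94.3% of the tested transcripts. Its mRNA level there rested on low counts, 67 and 51 in untreated replicates a and b. CTH had 0.52 ± 0.16, PHGDH 0.21 ± 0.04, GLUL 0.02 ± 0.05 and MTHFD2 -0.63 ± 0.11 (SD, n = 2), and the median transcript had 0.03. MTHFD2, above 95.3% of transcripts by mRNA, was thus above 27.1% of them by translational efficiency. ATF4 was above 98.5% of transcripts by mRNA and above 0.766% by translational efficiency in the same cells.

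**Figure D1:**
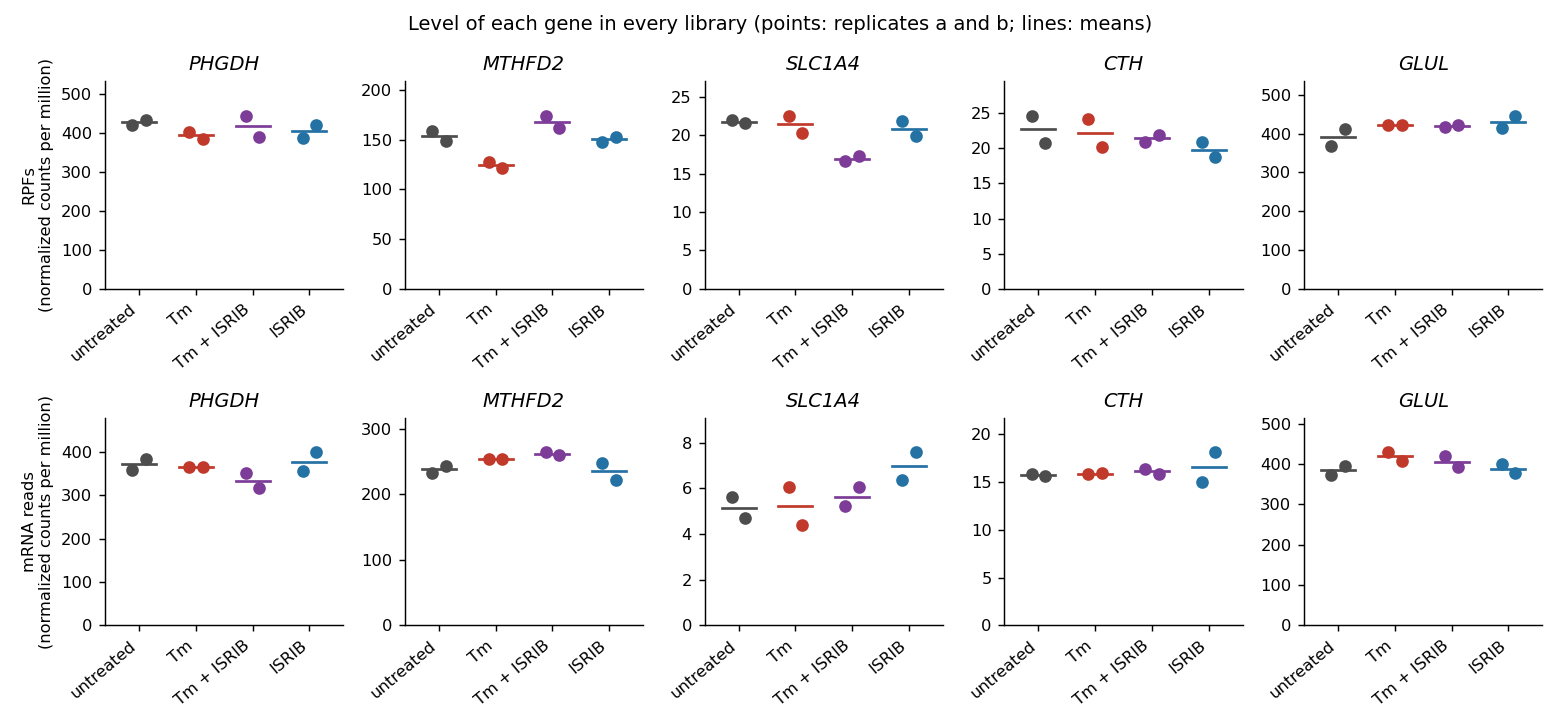
RPFs (upper row) and mRNA reads (lower row) of each gene in CPM, by treatment, with 1 point per library and a line at the mean of replicates a and b. MTHFD2 RPFs were 128 and 122 CPM in Tm and 148 to 174 CPM in the other 6 Ribo-Seq libraries, while its mRNA stayed between 222 and 264 CPM.

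The first question was whether Tm for 1 hr changed the RPFs of these genes relative to other transcripts. One of the 5 genes, MTHFD2, changed in RPFs, and it fell. Its RPFs were 159 and 149 CPM in untreated cells (replicates a and b) and 128 and 122 CPM in Tm, so that both Tm libraries lay below both untreated libraries. The fitted level in Tm was 0.814 of the untreated one, or -0.30 as a log2 fold change (SE, the standard error, 0.08, adjusted p = 0.024). Unless another tool is named, every adjusted p comes from the quasi-likelihood test of edgeR, adjusted over all tested transcripts by Benjamini-Hochberg, and a change is called at an FDR of 0.1. Over all tested transcripts 13.5% passed the FDR of 0.1 in this comparison, and 7.21% passed it and fell (791 transcripts, beside 694 that rose). With total counts in place of TMM the fallen and risen transcripts numbered 539 and 1069, and MTHFD2 still fell (log2 -0.24, adjusted p = 0.066). The call rested on Tm replicate b, without which the log2 fold change was -0.27 and the adjusted p was 0.175.

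The other 4 genes did not pass the test for RPFs in Tm. PHGDH had 421 and 433 CPM in untreated cells and 402 and 385 CPM in Tm. Its Tm libraries were both the lower, with a log2 fold change of -0.12 (95% interval -0.27 to 0.03, adjusted p = 0.36 in edgeR). GLUL had 369 and 411 CPM in untreated cells and 422 in both Tm libraries. It was the member with the highest log2 fold change, 0.11 (95% interval -0.03 to 0.26, adjusted p = 0.37). Without untreated replicate b, whose GLUL level was nearer to that in Tm, its log2 fold change was 0.20 and passed the FDR (adjusted p = 0.094 in edgeR). SLC1A4 and CTH overlapped between the groups. SLC1A4 had 22.0 and 21.5 CPM in untreated cells and 22.6 and 20.3 in Tm. CTH had 24.7 and 20.7 CPM in untreated cells and 24.2 and 20.3 in Tm. Their log2 fold changes of -0.01 and -0.0033 had 95% intervals of -0.32 to 0.29 and -0.32 to 0.31, from 62 to 241 RPF counts per library for SLC1A4 and 62 to 232 for CTH. Changes within these intervals, in either direction, are compatible with the data for these scarce transcripts. For comparison, the log2 fold change of ATF4 RPFs in the same fit was 2.69 (SE 0.10, adjusted p = 2.5e-18).

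The mRNA of the 5 genes was then examined, since RPFs follow the amount of template. None of the 5 passed the test in Tm compared with untreated cells, where 11% of all transcripts did. MTHFD2 mRNA was 233 and 244 CPM in untreated cells and 255 and 253 CPM in Tm. Thus, while its RPFs were lower in Tm, its mRNA libraries were both higher, with a log2 fold change of 0.09 that did not pass (95% interval -0.06 to 0.25, adjusted p = 0.43 in edgeR). GLUL mRNA was 373 and 394 CPM in untreated cells and 429 and 408 CPM in Tm, a log2 fold change of 0.12 (adjusted p = 0.28). PHGDH mRNA was 358 and 383 CPM in untreated cells and 365 in both Tm libraries. CTH mRNA was 15.9 and 15.6 CPM against 15.8 and 15.96 CPM. SLC1A4 mRNA, with 47 to 147 counts per library, was 5.62 and 4.69 CPM against 6.05 and 4.39 CPM. The log2 fold changes of these 3 genes lay between -0.02 and 0.01, and their groups overlapped.

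When the 4 mRNA-Seq libraries with Tm were set against the 4 without, 22.4% of all transcripts passed and none of the 5 genes did. MTHFD2 came nearest, with a log2 difference of 0.12 (SE 0.05, adjusted p = 0.11 in edgeR), and all 4 libraries with Tm (253 to 264 CPM) were above all 4 without (222 to 248 CPM). How many of all transcripts separate in this way was not counted, here or for other groups described as not overlapping. The values of GLUL (0.09, adjusted p = 0.21), PHGDH (-0.10, adjusted p = 0.26), SLC1A4 (-0.15, adjusted p = 0.52) and CTH (-0.0099, adjusted p = 0.95) did not pass. Calls in this comparison depended on single libraries of several treatments, and not only on the mRNA-Seq pair of ISRIB-treated cells noted above. Without ISRIB replicate a, 3 of the 5 passed, namely MTHFD2 (0.18, adjusted p = 0.0064), GLUL (0.13, adjusted p = 0.0499) and PHGDH (-0.13, adjusted p = 0.056), and the number over all transcripts went from 2453 to 4410. Without ISRIB replicate b, 0 of the 5 passed.

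Translational efficiency combined the assays. In Tm compared with untreated cells 15.9% of all transcripts passed, and MTHFD2 was the 1 member among them. With total counts 1321 transcripts rose and 624 fell in efficiency, from 790 and 956 with TMM, and MTHFD2 fell under both (-0.30 with total counts, adjusted p = 0.078). Its log2 efficiency was -0.55 and -0.71 in untreated lysates a and b and -0.996 and -1.06 in Tm, so that the Tm lysates were the lowest of the 8. The log2 fold change was -0.39 (SE 0.11, adjusted p = 0.026 in edgeR). Without Tm replicate a, Tm replicate b or untreated replicate a it kept its direction (-0.42, -0.36 and -0.31) and did not pass (adjusted p = 0.135, 0.181 and 0.177). PHGDH had a log2 fold change of -0.10 (95% interval -0.34 to 0.15). GLUL had -0.01 (95% interval -0.23 to 0.21), CTH -0.01 (95% interval -0.42 to 0.39) and SLC1A4 -0.0042 (95% interval -0.53 to 0.52), and none of these passed. ATF4 efficiency rose by 2.56 on the same scale.

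**Figure D2:**
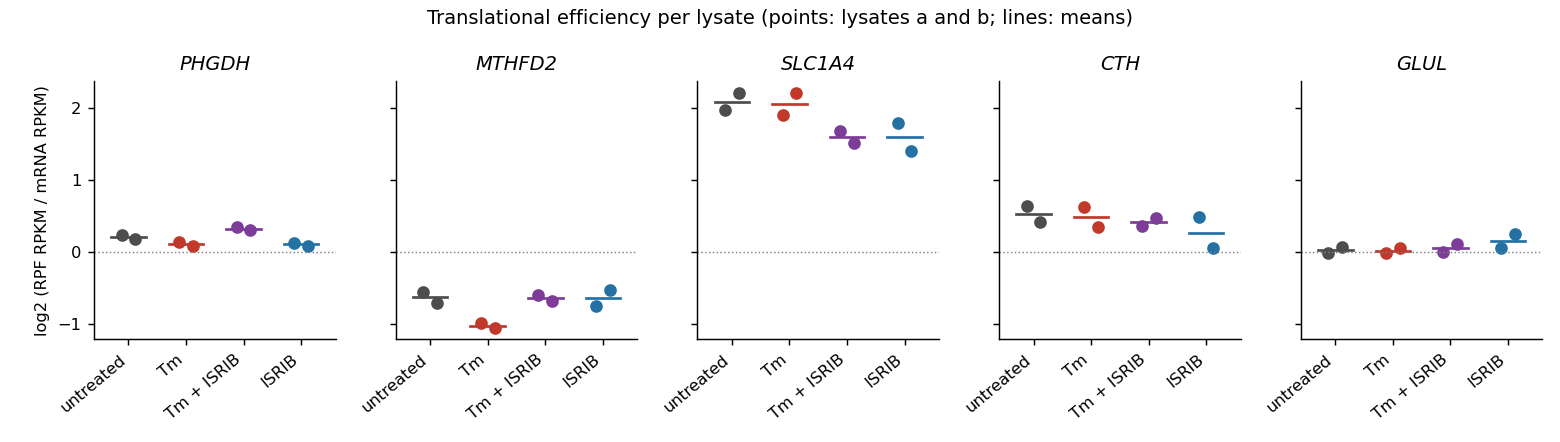
Translational efficiency of each gene as log2 of RPF RPKM over mRNA RPKM, with 1 point per lysate (a and b) and a line at the mean, by treatment. MTHFD2 lay at -0.996 and -1.06 in Tm and between -0.75 and -0.54 in the other lysates. SLC1A4 lay between 1.39 and 1.78 in the lysates with ISRIB and between 1.90 and 2.21 in those without. That split was seen in the plotted values, and no comparison of SLC1A4 efficiency passed the FDR.

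The second question was what ISRIB did to cells under Tm. In Tm + ISRIB compared with Tm, MTHFD2 was again the member that changed, and it rose. Its RPFs were 174 and 161 CPM in Tm + ISRIB, above both Tm libraries (128 and 122 CPM) and also above both untreated ones. The level in Tm + ISRIB was 1.34 times that in Tm, a log2 fold change of 0.42 (SE 0.09, adjusted p = 0.0011 in edgeR), where 17.7% of all transcripts passed (1045 rose and 900 fell, or 793 and 1316 with total counts). It passed the FDR without any single library of this comparison (0.37 to 0.47, adjusted p = 0.0042 to 0.038). This comparison and the one before it share the Tm libraries, so they are not independent. Its mRNA in Tm + ISRIB was 264 and 260.1 CPM. Log2 efficiency was -0.60 and -0.69, between those of the untreated lysates, and the efficiency change from Tm was 0.38 (SE 0.11, adjusted p = 0.060), in a comparison that 6.11% of all transcripts passed. That call was lost with total counts (0.33, adjusted p = 0.102), without the filter on low counts (0.37, adjusted p = 0.104) and without any one of the 4 replicates (0.34 to 0.42, adjusted p = 0.17 to 0.37).

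Among the other genes SLC1A4 had the lowest value of this comparison. Its RPFs were 16.7 and 17.3 CPM in Tm + ISRIB, the lowest 2 of the 8 libraries, from 22.6 and 20.3 CPM in Tm. The log2 fold change of -0.34 (95% interval -0.68 to -0.01) had an adjusted p of 0.17 in edgeR and did not pass. Its mRNA was 5.22 and 6.05 CPM in Tm + ISRIB and its efficiency change was -0.49 (95% interval -0.999 to 0.02, adjusted p = 0.31). PHGDH had 444 and 390 CPM in Tm + ISRIB and a log2 fold change from Tm of 0.08 (95% interval -0.07 to 0.24). Its efficiency change was 0.21 (95% interval -0.03 to 0.46, adjusted p = 0.36) and did not pass, with both Tm + ISRIB lysates (0.34 and 0.30) above all other lysates. The share of all transcripts with such an order was not counted. CTH had 20.9 and 21.9 CPM, within the range of its Tm libraries, and a log2 fold change of -0.07 (95% interval -0.40 to 0.27). GLUL had 417 and 423 CPM and a log2 fold change of -0.0083 (95% interval -0.16 to 0.14). Efficiency changes of CTH (-0.09) and GLUL (0.04) did not pass either.

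**Figure D3:**
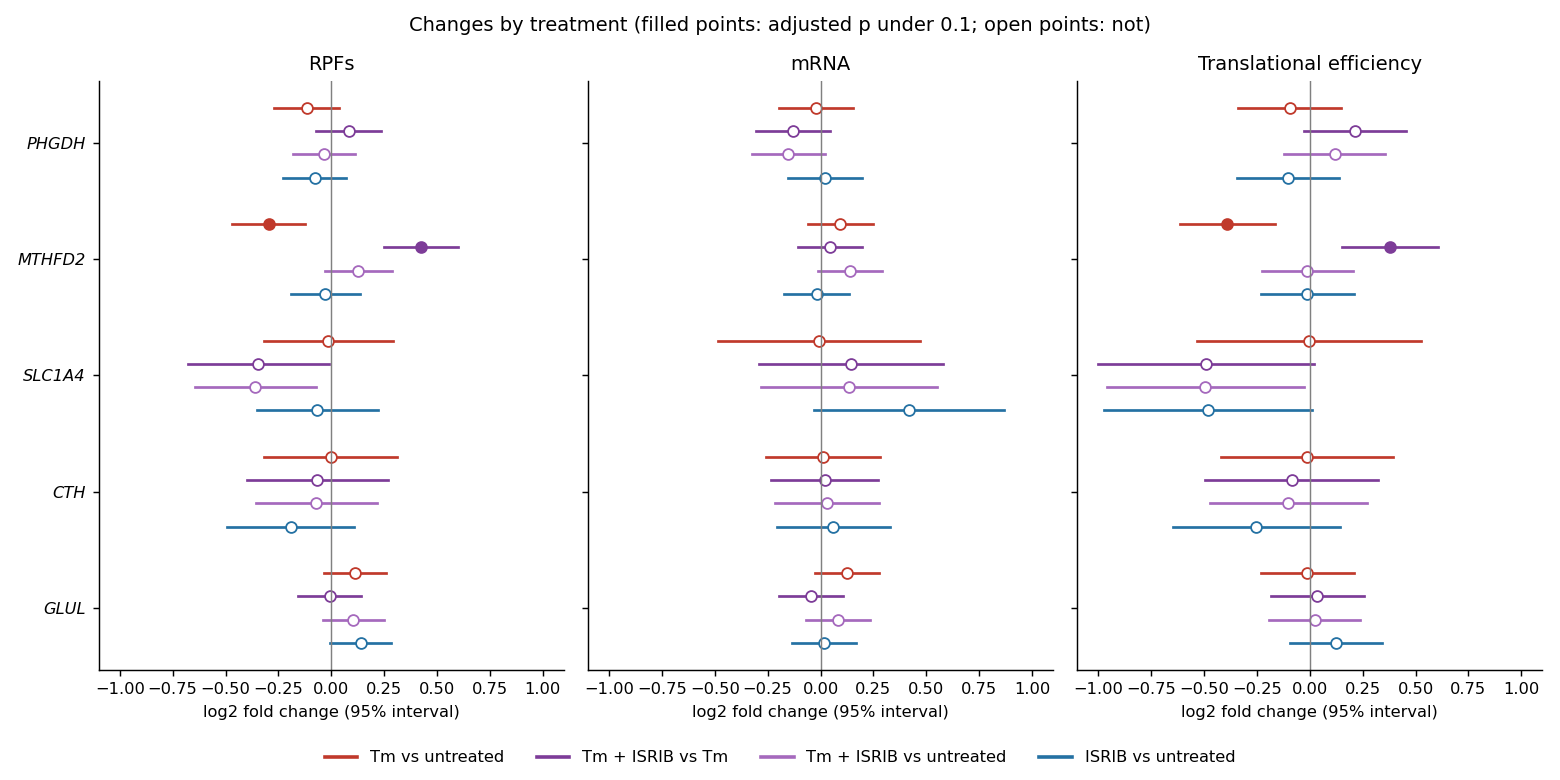
Log2 fold changes (points) with 95% intervals (lines) of RPFs, mRNA and translational efficiency for each gene in 4 comparisons, where filled points passed an FDR of 0.1 and open points did not. The filled points all belong to MTHFD2, at -0.30 and 0.42 in RPFs and at -0.39 and 0.38 in translational efficiency.

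Compared with untreated cells, none of the 5 genes passed in Tm + ISRIB, where 2.65% of all transcripts passed in RPFs. MTHFD2 had a log2 fold change of 0.13 (95% interval -0.03 to 0.29, adjusted p = 0.51 in edgeR). SLC1A4 had -0.36 (95% interval -0.64 to -0.07), which reached an unadjusted p of 0.016 and an adjusted p of 0.23. GLUL had 0.10 (95% interval -0.04 to 0.25), PHGDH -0.03 (95% interval -0.18 to 0.11) and CTH -0.07 (95% interval -0.36 to 0.22). With ISRIB alone 0.0182% of all transcripts passed (2 of 10970) and 0 of the 5 genes. RPFs of MTHFD2 with ISRIB alone were 148 and 153 CPM, a log2 fold change of -0.03 (95% interval -0.19 to 0.13). GLUL RPFs were 413 and 447 CPM, both above the untreated libraries, with a log2 fold change of 0.14 (95% interval -0.0044 to 0.28, adjusted p = 0.999). CTH RPFs were 20.9 and 18.7 CPM (log2 -0.19, 95% interval -0.49 to 0.11). PHGDH had 387 and 421 CPM (log2 -0.08) and SLC1A4 had 21.9 and 19.9 CPM (log2 -0.07), and both overlapped their untreated libraries. SLC1A4 mRNA was 6.36 and 7.58 CPM with ISRIB alone (70 and 65 counts) and 5.62 and 4.69 CPM in untreated cells. That log2 fold change of 0.42 did not pass (95% interval -0.03 to 0.87, adjusted p = 0.38 in edgeR).

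The change that Tm made with ISRIB present was then compared with the change it made without ISRIB, in 1 model over the 8 Ribo-Seq libraries. MTHFD2 was the member that passed, with a difference of 0.45 on the log2 scale (SE 0.12, adjusted p = 0.026 in edgeR), where 6.9% of all transcripts passed. In levels, MTHFD2 RPFs went from 153.7 ± 6.90 to 124.8 ± 4.11 CPM with Tm alone and from 150.4 ± 3.72 to 167.8 ± 8.94 CPM with Tm when ISRIB was present (SD, n = 2). The test did not pass without Tm replicate b (0.42, adjusted p = 0.12), Tm + ISRIB replicate a (0.40, adjusted p = 0.163) or ISRIB replicate a (0.43, adjusted p = 0.125). PHGDH had a difference of 0.16 (95% interval -0.05 to 0.37), CTH 0.13 (95% interval -0.32 to 0.57), GLUL -0.15 (95% interval -0.36 to 0.06) and SLC1A4 -0.28 (95% interval -0.72 to 0.16), and none of these passed. COL5A2, a collagen gene looked up as a fibroblast marker, had a difference of 0.67 (SE 0.21, adjusted p = 0.076) in the same test, and its part in the MTHFD2 result was not tested.

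Of the remaining comparisons, none had a member past the FDR. For mRNA these were Tm + ISRIB compared with Tm, where 0 transcripts passed in edgeR (0% of all, with 198 at an unadjusted p under 0.05 and 0 in DESeq2), Tm + ISRIB compared with untreated cells (14.2% of all) and ISRIB compared with untreated cells (1.15% of all). The test of whether the Tm change in mRNA differed with and without ISRIB also had 0 (0% of all, with 956 at an unadjusted p under 0.05 and 16 in DESeq2). For translational efficiency they were Tm + ISRIB and ISRIB alone, each compared with untreated cells (8.96% and 0.191% of all). In that order, the efficiency change of SLC1A4 was -0.49 (95% interval -0.96 to -0.03, adjusted p = 0.21 in edgeR) and -0.48 (95% interval -0.97 to 0.0085, adjusted p = 0.57). Both values rest on its low mRNA counts.

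Over the 8 Ribo-Seq libraries the genes did not share a pattern. Pearson's r between pairs of the 5, on log2 CPM, ran from -0.72 (CTH and GLUL) to 0.59 (PHGDH and MTHFD2), over libraries that share treatments and depth. Among 1890 other tested transcripts with a symbol, those most like each gene over the 8 libraries were KIF1B (r = 0.97) and ARHGEF11 (r = 0.96) for MTHFD2, SARS (r = 0.92) and ADCK3 (r = 0.92) for PHGDH, TOR3A (r = 0.95) and C1orf21 (r = 0.92) for SLC1A4, IWS1 (r = 0.92) and S100PBP (r = 0.89) for CTH, and SESN2 (r = 0.87) and SUSD5 (r = 0.87) for GLUL. These correlations are descriptions of 8 points, and the highest of many were picked. SARS, the cytosolic seryl-tRNA synthetase, loads the amino acid whose synthesis PHGDH begins. That is background on a picked gene, and its part in the likeness was not tested.

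Other genes of these pathways were counted from 6 lists with 41 symbols, of which 36 were tested. GFPT1, SCLY and ATF3 were not joined between the assays, and AGMAT and SLC6A11 did not pass the filter on low counts. In RPFs with Tm, 5 of the 36 rose and 2 fell (13.5% of all tested transcripts passed), with a median log2 fold change of 0.0051 beside -0.0080 over all tested transcripts. In mRNA 1 fell and 0 rose (11% of all passed), and in translational efficiency 4 rose and 3 fell (15.9% of all passed). In mRNA of the 4 libraries with Tm against the 4 without, 1 of the 36 rose and 3 fell (22.4% of all passed). In RPFs of Tm + ISRIB compared with Tm, 5 fell and 0 rose (17.7% of all passed), with a median of -0.07 beside 0.0040 over all. Both RPF comparisons share the Tm libraries, and none of these counts is read as particular to the lists. The same shares over all transcripts apply to the counts by single list below, which are not read as particular to a list either.

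In the list for folate, the methionine cycle and cobalamin, 2 of 6 rose in RPFs with Tm. They were MTR, the methionine synthase that takes a methyl group from folate (log2 fold change 0.30, SE 0.08, adjusted p = 0.019 in edgeR), and MAT2A, which makes S-adenosylmethionine (0.22, SE 0.08, adjusted p = 0.093). Both also rose in translational efficiency (0.43 and 0.43, adjusted p = 0.011 and 0.046), whereas MMADHC, which handles cobalamin, fell in it (-0.30, adjusted p = 0.079). In mRNA with against without Tm, MMADHC rose (0.24, adjusted p = 0.035) and MAT2A fell (-0.19, adjusted p = 0.077). MTR and MTHFD2, which both use folate-bound one-carbon units, therefore moved in opposite directions in RPFs with Tm. In the glutathione list 1 of 7 rose in RPFs, namely GCLM, the modifier subunit of glutamate-cysteine ligase (0.27, adjusted p = 0.083), and it fell from Tm to Tm + ISRIB (-0.32, adjusted p = 0.042).

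In the list for glutamine, glutamate, proline and arginine, 9 of 11 were tested. CPS1, the mitochondrial carbamoyl phosphate synthetase, rose in RPFs from 11.2 ± 0.0870 to 22.3 ± 2.94 CPM (SD, n = 2), a log2 fold change of 1.01 (SE 0.17, adjusted p = 0.00018 in edgeR). CPS1 also rose in translational efficiency (1.05, adjusted p = 0.00043) and fell from Tm to Tm + ISRIB in RPFs (-0.73, adjusted p = 0.0061) and in translational efficiency (-0.74, adjusted p = 0.019). The study lists CPS1 among transcripts it selected on these samples, so this is not independent evidence. ALDH4A1, which completes the breakdown of proline to glutamate (-0.39, adjusted p = 0.091), and DDAH1, which degrades methylated arginines (-0.33, adjusted p = 0.033), fell in RPFs. ALDH4A1 also fell in translational efficiency (-0.58, adjusted p = 0.081). CAD, which uses glutamine to start pyrimidine synthesis, was the gene that fell in mRNA with Tm (-0.44, adjusted p = 0.092), and it also fell in the 4 libraries with Tm against the 4 without (-0.43, adjusted p = 0.035). CTPS1, a CTP synthetase that uses glutamine, named after its value was seen, fell in the latter (-0.15, adjusted p = 0.093).

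In the transport list 1 of 5 tested genes rose in RPFs with Tm. This was SLC25A44, a mitochondrial carrier of branched-chain amino acids, which went from 15.5 ± 2.18 to 22.6 ± 1.53 CPM (SD, n = 2; log2 fold change 0.57, adjusted p = 0.026 in edgeR) and fell to 11.8 ± 0.676 CPM in Tm + ISRIB (log2 -0.94 from Tm, adjusted p = 0.00069). Its translational efficiency fell as well (-1.07 from Tm to Tm + ISRIB, adjusted p = 0.016). In the list of amino acid breakdown 0 of 5 passed in RPFs with Tm, and DBT, a subunit of the branched-chain ketoacid dehydrogenase, named after its value was seen, fell from Tm to Tm + ISRIB (-0.34, adjusted p = 0.074). Of the other ATF4 targets 0 of 4 passed in RPFs or mRNA, and SARS fell in translational efficiency (-0.35, adjusted p = 0.062).

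**Figure D4:**
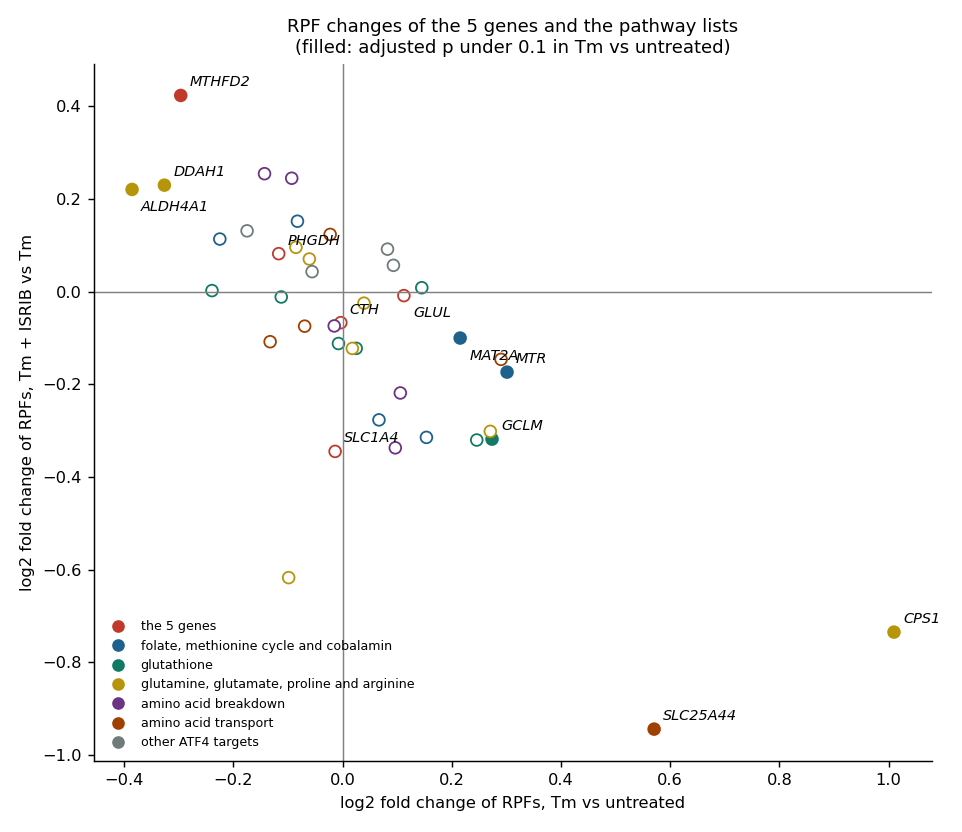
Log2 fold change of RPFs in Tm compared with untreated cells (horizontal) against that in Tm + ISRIB compared with Tm (vertical), for the 5 genes and the 36 tested genes of the 6 lists, with filled points past an FDR of 0.1 in the first comparison. The Tm libraries enter both axes with opposite sign, which by itself tilts the points downward, and MTHFD2 (-0.30, 0.42) lies opposite CPS1 (1.01, -0.73).

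Most of these list calls depended on single libraries or on the test. Without Tm replicate a, 6 of the 7 RPF calls with Tm were lost (all but CPS1, adjusted p = 0.121 to 0.281 in edgeR) and 6 of the 7 in translational efficiency (all but CPS1, 0.114 to 0.431). Without Tm replicate b or untreated replicate a, 4 RPF calls were lost each time (MAT2A, GCLM, ALDH4A1 and DDAH1, 0.158 to 0.443 and 0.140 to 0.574). In translational efficiency the same omissions lost 5 calls (MAT2A, ALDH4A1, MMADHC and SARS among them, 0.149 to 0.248) and 4 (MAT2A, MMADHC and SARS among them, 0.125 to 0.272). Without untreated replicate b, ALDH4A1 and SLC25A44 were lost in RPFs (0.154 and 0.160) and ALDH4A1, MMADHC and SARS in translational efficiency (0.118 to 0.326). The mRNA call of CAD in Tm was lost without any one of the 4 libraries (0.253 to 0.388). In mRNA with against without Tm, the calls of CAD, MMADHC, MAT2A and CTPS1 were all lost without either untreated replicate, either Tm replicate or Tm + ISRIB replicate a (0.104 to 0.265), and MAT2A and CTPS1 also without Tm + ISRIB replicate b or ISRIB replicate b (0.142 to 0.197). From Tm to Tm + ISRIB, the RPF call of CPS1 was lost without Tm replicate a (0.156) and that of GCLM without Tm replicate b or Tm + ISRIB replicate a (0.267 and 0.236). The call of DBT was lost without Tm replicate b or either Tm + ISRIB replicate (0.165 to 0.505). In translational efficiency from Tm to Tm + ISRIB, CPS1 was lost without Tm replicate a or Tm + ISRIB replicate b (0.289 and 0.167), and SLC25A44 without those or Tm replicate b (0.115 to 0.188). With DESeq2, MAT2A (0.14), GCLM (0.171) and ALDH4A1 (0.274) did not pass in RPFs with Tm, ALDH4A1 (0.219) and MMADHC (0.136) did not pass in translational efficiency, and CTPS1 (0.141) did not pass in mRNA. Other calls were also lost in some edgeR or DESeq2 fits that kept all libraries. The highest adjusted p was 0.109 for GCLM and 0.182 for DBT in RPFs from Tm to Tm + ISRIB. In translational efficiency with Tm it was 0.155 for SARS and 0.199 for MMADHC.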

How the data were processed

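Ribo-Seq and mRNA-Seq were performed on HEK293T lysates that were each divided between the assays. For each library the authors deposited raw read counts over the coding sequences of UCSC transcripts, not normalized. The submitters' processing notes name CASAVA 1.8, Bowtie 1.0.0, TopHat2 (2.0.7 and 2.0.10) and the hg19 build. How reads shared by isoforms were assigned is not given in the sources used here. Transcripts were joined between assays by identifier without version and by counted length. Symbols came from the part of the study's count tables that could be read (1947 joined transcripts). The 5 genes and the lists were chosen with earlier results of these data known. Named list genes are those past the FDR in Tm. The values of 1 list gene are not reported here, though the counts include it. Likeness was ranked by Pearson's r.

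Counts were filtered with filterByExpr (10 counts, both assays), scaled by TMM within each assay and tested by quasi-likelihood (glmQLFit, glmQLFTest) with edgeR 4.0.16 under R 4.3.3. No block on replicates was used, with Benjamini-Hochberg adjustment over all 10970 transcripts and an FDR of 0.1. Standard errors are the absolute log2 fold change over the square root of F. The functions were tested on simulated counts. An exact permutation test of 1 value over groups of 2 cannot give a p below 0.33. Alternatives were DESeq2 1.42.0, its size factors, total counts, no filter, replicate blocks, the compared libraries alone and omission of each replicate. Figures were drawn with matplotlib 3.10.9.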

Additional observations from a re-analysis of the deposited data

Results flagged for a closer look

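The following 3 results were flagged because the RPF change made by Tm differed with and without ISRIB. The test was of the difference itself (quasi-likelihood test in edgeR, Benjamini-Hochberg adjusted), and 757 transcripts (6.9% of all tested) passed it. Only the 5 genes and the list genes called in Tm compared with untreated cells were screened. That comparison shares libraries with the difference, so the values of the list genes are not independent evidence. COL5A2, a marker left out of the screen, also passed (0.67, adjusted p = 0.076 in edgeR). The difference was 0.45 on the log2 scale for MTHFD2 (adjusted p = 0.026), which fell with Tm alone. It was -1.22 for CPS1 (adjusted p = 0.0041) and -1.09 for SLC25A44 (adjusted p = 0.0090), which rose with Tm alone.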

How the results depend on the processing

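Over the 5 genes and the 15 alternative settings, 435 values kept their direction and side of the FDR, 13 kept their direction and lost the call, 4 gained one and 38 changed sign, and the cause was not tested. This tally covers all RPF comparisons. In mRNA it covers Tm against untreated and with against without Tm, and in efficiency Tm against untreated and Tm + ISRIB against Tm. A missing adjusted p in DESeq2 was scored as no call. Outside the tally, 1 member was called in mRNA of Tm + ISRIB against untreated with only the compared libraries. With all libraries kept, MTHFD2 stayed called in RPFs with Tm (-0.30 to -0.24, adjusted p = 0.018 to 0.066), from Tm to Tm + ISRIB (0.38 to 0.43, 0.00021 to 0.0036) and in the difference (0.43 to 0.46, 0.014 to 0.035). Its efficiency change from Tm to Tm + ISRIB was lost with total counts and without the filter, which left 0 and 0 of the 5 called there. SLC1A4 and CTH had the fewest RPF counts of the 5 (62 to 241 per library) and the widest intervals, and the part of depth in this was not tested.

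Replicates with the same letter deviated together by -0.163 to 0.387 (correlation) between treatments, highest for mRNA of Tm + ISRIB and ISRIB. Between the assays of a lysate the correlation was -0.052 to 0.044. The letters were not taken as pairs in the main fit, as the study states no pairing. With lysates as blocks MTHFD2 stayed called in efficiency with Tm. With the replicate block MTHFD2 had -0.30, 0.43 and 0.45 in those RPF tests and -0.39 and 0.38 in efficiency, and the block changed no call of the 5 genes. Over all transcripts the block gave 4 calls for RPFs and 38 for efficiency with ISRIB alone.

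The DESeq2 Wald test called 744 transcripts in RPFs with Tm, 1002 from Tm to Tm + ISRIB, 84 from untreated to Tm + ISRIB and 337 in the difference. In mRNA it called 694 with Tm, 776 with Tm + ISRIB, 16 in the difference and 1382 with against without Tm. In efficiency it called 404 from Tm to Tm + ISRIB, 610 from untreated to Tm + ISRIB and 41 with ISRIB. It gave no adjusted p for CPS1 and SLC25A44 in RPFs with Tm and in the difference, nor for SLC25A44 in efficiency from Tm to Tm + ISRIB. Fits to only the libraries compared called 185 in RPFs of Tm + ISRIB against untreated, 1 in RPFs with ISRIB, 3162 in mRNA with Tm, 2952 in mRNA with Tm + ISRIB (1 of them a member), 0 in mRNA with ISRIB, 1028 in efficiency from Tm to Tm + ISRIB and 0 in efficiency with ISRIB. Total counts gave 7 in RPFs with ISRIB. Without the filter there were 13 in RPFs, 214 in mRNA and 32 in efficiency with ISRIB, and 19 in the mRNA difference.

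Omitting single replicates moved the RPF counts to 637 to 1450 with Tm, 772 to 1454 from Tm to Tm + ISRIB, 18 to 692 from untreated to Tm + ISRIB, 0 to 37 with ISRIB and 222 to 1176 in the difference. The mRNA counts moved to 0 to 212 with Tm, 0 to 362 with Tm + ISRIB, 0 to 905 with ISRIB, 0 to 288 in the difference and 0 to 4410 with against without Tm. Efficiency counts moved to 524 to 1031 with Tm, 71 to 195 from Tm to Tm + ISRIB, 83 to 662 from untreated to Tm + ISRIB and 0 to 71 with ISRIB. Of the 5 genes, 0 to 2 were called in RPFs with Tm, 0 to 1 in the RPF difference, 0 to 3 in mRNA with against without Tm, 0 to 1 in efficiency with Tm and 0 to 0 from Tm to Tm + ISRIB.

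All sign changes were of values that had not passed. Under other scalings or tests, SLC1A4 with Tm was 0.040 in RPFs (total counts), 0.0027 in mRNA (DESeq2) and 0.0053, 0.091 and 0.00078 in efficiency (DESeq2 size factors, total counts and compared libraries). CTH with Tm was 0.0056, 0.050 and 0.0016 in RPFs under the same 3 settings, -0.030 in mRNA and 0.079 in efficiency (total counts), and 0.0074 in mRNA with against without Tm (no filter). With total counts GLUL efficiency was 0.082 with Tm and -0.014 from Tm to Tm + ISRIB. Omitting replicates gave ranges across 0 for RPFs with Tm of SLC1A4 (-0.10 to 0.052) and CTH (-0.15 to 0.12), from Tm to Tm + ISRIB of PHGDH (-0.015 to 0.17), CTH (-0.17 to 0.083) and GLUL (-0.024 to 0.0020), from untreated to Tm + ISRIB of PHGDH (-0.13 to 0.057) and CTH (-0.20 to 0.049), and with ISRIB of MTHFD2 (-0.076 to 0.017) and SLC1A4 (-0.13 to 0.0038). In mRNA they were PHGDH (-0.070 to 0.028) and SLC1A4 (-0.24 to 0.23) with Tm and CTH (-0.068 to 0.056) with against without Tm. In efficiency they were SLC1A4 (-0.17 to 0.13), CTH (-0.17 to 0.10) and GLUL (-0.048 to 0.036) with Tm, and CTH (-0.20 to 0.071) and GLUL (-0.029 to 0.096) from Tm to Tm + ISRIB.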
